A study of Homo sapiens with 2 samples.

Results

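The USP17L genes form a tandem array on the short arm of human chromosome 4 (band 4p16.1), and the TCF12 ChIP-seq peaks listed there in Hep3B cells are described here. Hep3B is an established human hepatocellular carcinoma cell line, grown here without treatment. There was 1 library of chromatin precipitated with the TCF12 antibody and 1 input library of genomic DNA labelled as having no ChIP antibody. The authors listed the peaks of the first over the second with MACS, so no value below has a replicate check and no test between conditions was possible. The members were chosen by position: all listed peaks on chromosome 4 overlapping 9150000 to 9400000 on hg19 by at least 1 bp. The window itself had been picked for its many peaks, that is, from the measured values. Counts, reads, background and length are therefore given as descriptions, without a test. The rule found 89 peaks of the 64251 in the table, which is 0.139% of the table and 2.98% of the 2991 peaks on chromosome 4.

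USP17L genes encode deubiquitinases of the DUB3 type, cysteine proteases that remove ubiquitin from other proteins and thereby spare them from degradation by the proteasome. DUB3 is known for stabilising the cell cycle phosphatase CDC25A. On chromosome 4 the genes lie head to tail in the RS447 megasatellite, a repeat of about 4.7 kb in which each unit can carry a single intronless reading frame, and the number of units differs widely between people. TCF12 is a basic helix-loop-helix E protein that binds DNA at E-box motifs as a dimer.

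The gene table used here is that of RefSeq on GRCh38, another build than that of the peaks, so it served for names, kind, coding length and order alone. It holds 29 USP17L entries, 23 on chromosome 4 and 6 on chromosome 8. Those on chromosome 4 comprise 19 protein-coding genes and 4 pseudogenes. The 10 genes named for the cluster were all matched: USP17L10, USP17L11, USP17L12, USP17L13, USP17L15, USP17L17, USP17L18, USP17L19, USP17L20 and USP17L21. They take up the first 12 places in the row, with the pseudogenes USP17L14P and USP17L16P between them. Of the 10, 9 have a coding length of 1593 bp, or 531 codons with the stop, and USP17L15 has 1662 bp. Of all 23 entries on chromosome 4, 20 have the same 1593 bp. Copies of RS447 are known to be nearly identical in sequence, so that a read of 145 bp can match several of them, and the sources used here do not say how such reads were placed. For this reason, and because of the difference in build, no peak was assigned to a single gene such as USP17L10 or USP17L21. No sequence of these genes was at hand, so none is shown and E-boxes were not counted.

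The peaks of the cluster were far more numerous than those on both sides. The window of 250 kb held 89 listed peaks, or 356 per Mb. The equal-sized flank before it held 14, and the flank after it held 13, which makes the window 6.59 times as dense as their mean. The next windows outward held 7 and 18 peaks, so the flanks were not empty stretches. When chromosome 4 was cut into 765 windows of the same size, the median window held 2 peaks, and the next densest after the cluster held 42 and 35. Among the 10077 windows with at least 1 peak on chromosomes 1 to 22 and X, the highest count after the 89 of the cluster was 44. The windows were laid to match the ends of the cluster window, so the cluster stayed whole. Other dense places may be split between neighbouring windows, which lowers their counts. Listed peaks covered 39012 bp of the window, or 15.6%, against 1.48% and 1.26% of the flanks.

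**Figure D1:**
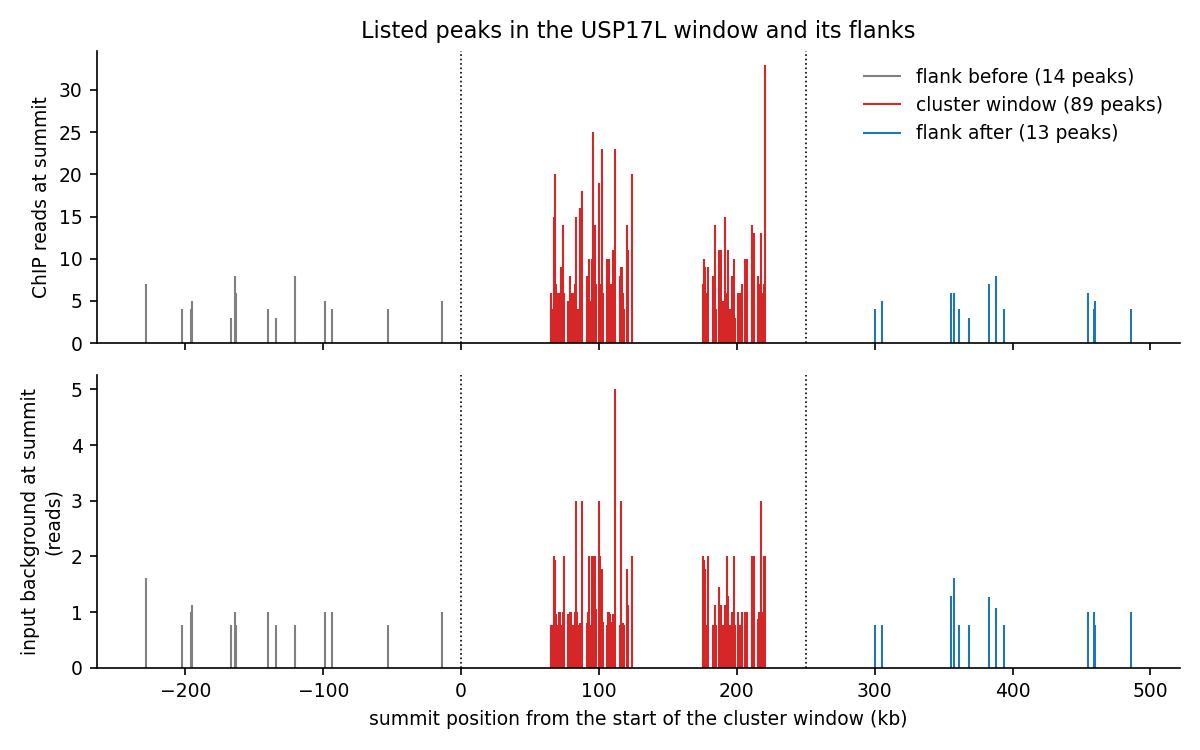
ChIP reads (top) and input background (bottom, in reads) at each listed summit, against its position in kb from the start of the cluster window, with 1 line per peak and dotted lines at the ends of the window. The 89 peaks of the window stand in 2 dense blocks with an empty stretch between them, and their reads reach 33 against 8 in both flanks.

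The 89 peaks did not fill the window evenly but stood in 2 blocks. The blocks were split at the longest distance between neighbouring summits, 51026 bp. The first block ran from 9214746 to 9274369 and held 54 peaks in 59.6 kb. The second ran from 9324742 to 9370679 and held 35 peaks in 45.9 kb. In units of 4.7 kb the first block is 12.7 units long and has 4.26 peaks per unit, and the second is 9.77 units long and has 3.58 per unit. Listed peaks covered 38.6% of the first block and 34.9% of the second. Between the blocks lay 50.4 kb without any listed peak, whereas the longest empty stretch inside a block was 3.18 kb. Whether the empty stretch holds sequence in hg19 was not tested, since a genome of that build was not used here.

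At both outer edges the change was abrupt. The first peak of the cluster, at 9214746 to 9214909, had 6 reads at its summit, and the nearest peak before it, at 9135963 to 9136241, had 5 reads and lay 78.5 kb away. The last peak of the cluster, at 9370248 to 9370679, had 33 reads. The nearest peak after it, at 9450432 to 9450592, had 4 reads and lay 79.8 kb away. Both of these outside peaks fall in the flanks.

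Reads at the summits of the cluster ranged from 3 to 33 with a median of 7 (exact binomial 95% interval of the median 7 to 9). The median was 4.5 in the flank before, 5 in the flank after, and 5 in the rest of chromosome 4 and in the whole table. The highest summit of either flank had 8 reads. The lower quartile of the cluster, 6 reads, was equal to or above the upper quartile of both flanks (5.75 and 6). The blocks resembled each other, with medians of 7 and 8 reads and the same upper quartile of 11. The members therefore include weak peaks like those of the flanks and, in addition, a tail of strong ones that the flanks lack.

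That tail was long. Of the 89 peaks, 33 had at least 10 reads at the summit (37.1%), against 1.33% of all peaks in the table and none of the 27 in both flanks. These 33 are 47.8% of the 69 such peaks on chromosome 4. A q under 1 was listed for 29 of the 89 (32.6%), against 0.346% of the table. The 29 split into 18 in the first block and 11 in the second, or 33.3% and 31.4% of their peaks. Of these, 13 had a q no higher than 0.05, 10 in the first block and 3 in the second. Since the window was picked for these values, the shares describe it and test nothing.

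The strongest member closed the second block. Its summit at 9370567 carried 33 reads, with an exact Poisson 95% interval of 22.7 to 46.3 that covers counting error alone, as do all such intervals here. Scaled to the input library this is 28.5, over a background of 2 input reads. Its fold enrichment of 9.84 was the highest of the table, and its −log10 p of 23.1 had rank 2, the highest being 23.5. By reads alone it was less extreme, as 39 peaks of the table had at least as many.

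The second strongest was in the first block, at 9245281 to 9245970. It had 25 reads (16.2 to 36.9) against a background of 2, and a −log10 p of 15.3. The next in reads was a pair with 23 each (14.6 to 34.5), but their backgrounds differed. The peak at 9251646 to 9252591 stood on a background of 1.77 and had a −log10 p of 14.2. The peak at 9261257 to 9261836 stood on a background of 5, the highest of the cluster, and its −log10 p was 6.46. Equal reads were thus listed with very unequal strength because the input beneath them differed.

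Peaks of 20 reads were listed at 9218099 to 9218732 and at 9273523 to 9274369, near both ends of the first block. Their backgrounds were 1.93 and 2. The peak at 9235519 to 9236589 had fewer reads, 16 (9.15 to 26.0), and yet a −log10 p of 12.6, since its background was 0.805. Peaks of 19 and 18 reads, at 9249360 to 9250640 and 9237149 to 9237682, both had a background of 3 and −log10 p values of 7.66 and 6.91. Another 3 peaks tied at 15 reads, with summits at 9217383, 9233107 and 9341448. Of these 12 strongest members by reads, 10 were in the first block and 2 in the second, and 11 had a q under 1. The exception was the summit at 9233107, with 15 reads on a background of 3.

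The input background lay near that of the flanks by its median and above it by its mean. Its median over the 89 peaks was 1.00 read (exact binomial 95% interval of the median 0.966 to 1.06), the same as the 1.00 in each flank, and it was 0.789 in the rest of chromosome 4. The mean was further apart, 1.33 reads in the cluster against 0.951 and 0.987 in the flanks. A background of at least 2 reads was found at 22 of the 89 peaks (24.7%), against 6.85% of the table and none of the peaks in the flanks. Of the 22, 16 had exactly 2 reads, 5 had 3 and 1 had 5. The next window outward before the cluster had such a background at 3 of its 7 peaks (42.9%) and a median of 2.00, both above the cluster, and the one after had it at 1 of 18.

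The recovered background shows in part which level of the input set it, since MACS takes the highest of several levels. For 41 of the 89 peaks (46.1%) it was a whole number of input fragments over the summit itself, as for 23.5% of the table. For 20 peaks it was a whole number of input reads within 1 kb, and for 7 it matched the input within 10 kb alone. Each of the 20 values also equals 10 times as many reads within 10 kb, so the windows cannot be told apart there. For the remaining 21 it was the genome-wide level of 0.763, the lowest MACS could use. At these 21 peaks the input in the surrounding 10 kb was at most 47 reads. Spread evenly over 2700000000 bp, the input library would give 32.8 reads in 10 kb, so that the limit is 1.43 times this level. At the 7 peaks set by the 10 kb window, the input was between 48 and 66 reads, or 1.46 to 2.01 times the same level. The median at the summit was 7 reads in the cluster against 4.5 and 5 in the flanks. The median background was 1.00 in each, with a higher mean in the cluster. The background cannot fall below 0.763, which was its value at 6 of the 14 and 6 of the 13 flank peaks. Lower input at those peaks would not show, so input itself cannot be compared. How far copy number or the placing of repeated reads adds to the reads of the cluster was not tested.

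**Figure D2:**
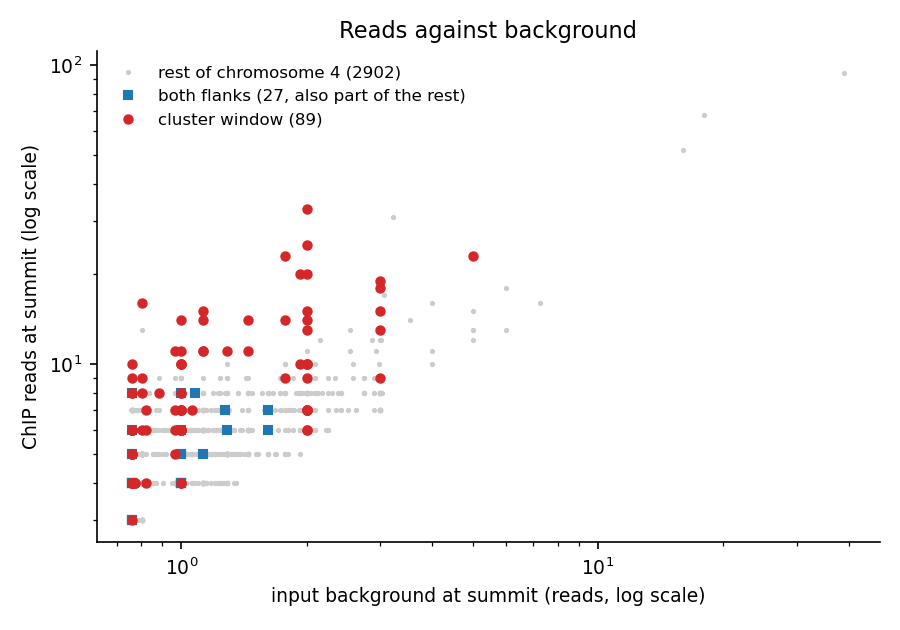
ChIP reads against input background at each summit, both on a log scale, for the cluster window (89 peaks), both flanks (27) and the rest of chromosome 4. The flanks stay at 8 reads or fewer, and 33 peaks of the cluster lie at 10 reads or more, 1 of them at a background of 5 and the others at 3 or less.

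Among peaks of chromosome 4 with at least 10 reads, those of the cluster had the lower background by median. The 33 members with at least 10 reads had a median background of 1.77 and a median ratio of scaled reads to background of 8.44. The 36 other peaks of chromosome 4 with at least 10 reads had a median background of 3 and a median ratio of 3.46. Their median reads were 14 and 12. A background below 2 was found for 19 of the 33 and for 4 of the 36. A q under 1 was listed for 27 of the 33 and 7 of the 36. The highest read counts of the chromosome, up to 94, were outside the cluster, where the background reached 39. Of the 36 other peaks, 15 lay in 1 window of 250 kb, so their medians lean on that window. As the cluster was picked from measured values, the contrast is a description and tests nothing.

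Peaks in the cluster were also longer. Their median length was 326 bp (exact binomial 95% interval of the median 283 to 474), against 275 and 241 bp in the flanks and 188 bp in the rest of chromosome 4. The shortest length MACS lists is the fragment length of 161 bp. This was the length of 14 of the 89 peaks (15.7%), against 38.4% in the rest of the chromosome. The interval of the cluster overlapped those of the flanks (163 to 313 and 161 to 305), which rest on 14 and 13 peaks. The longest member measured 1281 bp and was the peak of 19 reads at 9249360 to 9250640. Strong members were longer than weak ones, with a median of 594 bp for those with at least 10 reads and 259 bp for the other 56.

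Neighbouring summits stood much closer than the repeat unit. Their spacing had a median of 947 bp (exact binomial 95% interval of the median 846 to 1155), and 48 of the 88 spacings were under 1 kb. In the flanks the medians were 14350 and 5284 bp. The median was 859 bp in the first block and 1264 bp in the second. Within the blocks the widest spacings were 3759 and 3307 bp, so that no spacing there reached 4.7 kb. None of the 88 spacings was within 10% of the unit of a whole multiple of 4.7 kb (exact binomial 95% interval 0 to 4.10%). A match needs at least 4.23 kb, which no spacing within a block reached. The share thus follows from the density of summits, and its interval carries no weight. In the flanks, where spacings are long, 3 of 13 and 4 of 12 were within it, which cannot be compared with the cluster. Each unit therefore held several summits, and a period cannot be read from neighbours alone.

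The summits were then folded on the unit, that is, each was placed by its position within 4.7 kb. The alignment of folded summits is given by a vector length, which is 0 for no alignment and 1 when all summits share 1 position. Over all 89 summits it was 0.115. Over the first block alone it was 0.149, and over the second 0.225. Weighting each summit by its reads raised it to 0.284 and 0.331. For the summits with a q under 1 it was 0.478 in the first block (18 summits) and 0.488 in the second (11), but 0.152 when both blocks were folded together. With a unit of 4790 bp, the best between 4.4 and 5.0 kb for these 29 summits, it was 0.502 over both blocks. Taken alone, the blocks were best at 4795 bp (0.540) and 4660 bp (0.494) for such summits. All values over both blocks depend on the length of the 50.4 kb empty stretch between them, whose sequence in hg19 was not checked. The flanks had vector lengths of 0.401 and 0.322, from 14 and 13 summits. Few points give long vectors on their own, so the values for 11 to 18 summits, in the blocks as in the flanks, cannot be set against those for 35, 54 or 89. No level without a repeat was computed for any of them, and whether the summits align on the unit was not tested.

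**Figure D3:**
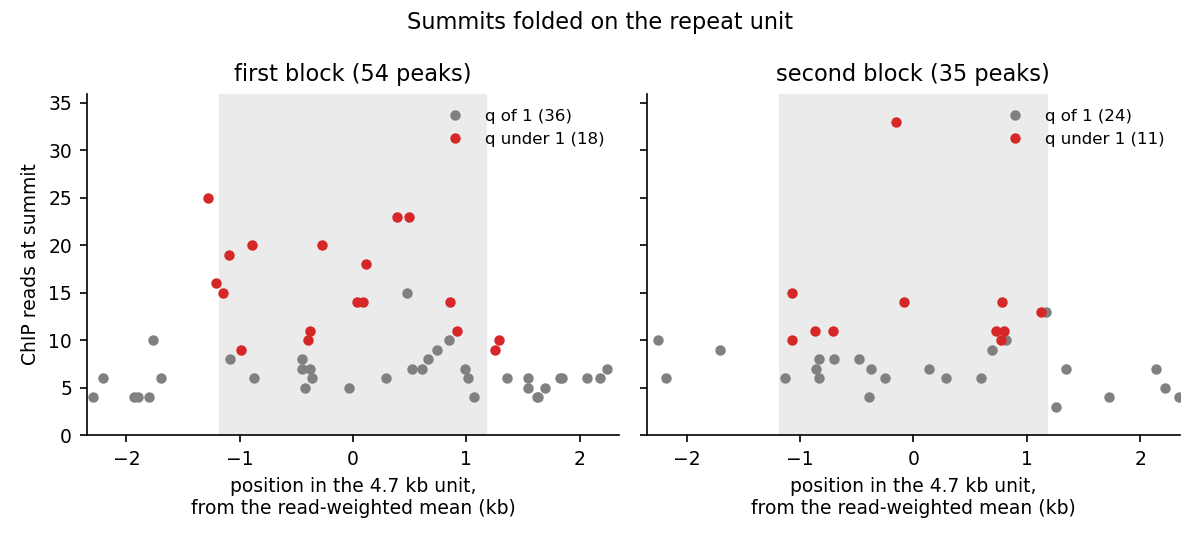
ChIP reads at each summit against its position within a 4.7 kb unit, in kb from the read-weighted mean position of its block, with the central 2.35 kb shaded and peaks with a q under 1 in red. In the first block 14 of 18 and in the second 11 of 11 red points are in the shaded part, which was centred with the same reads.

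The position of strong peaks within the unit was described by a split of it into 2 parts. In each block the unit was centred on the read-weighted mean position, and its central 2.35 kb was set against the outer 2.35 kb. The central part held 58 of the 89 peaks, 74.2% of the summit reads, 28 of the 33 peaks with at least 10 reads and 25 of the 29 with a q under 1. The outer part held 31 peaks, and their median was 6 reads against 9. In the second block the outer part had 9 peaks, none with a q under 1 and none above 10 reads. In the first block it had 22 peaks, of which 4 had a q under 1. Among these 4 were the peaks of 25 and 16 reads, whose summits at 9245449 and 9236125 lay at -1283 and -1207 bp from the centre, just past the border. The centre was set by the reads, so that some concentration follows from the construction. The background followed the same course less strongly, with a median of 1.03 in the central and 0.821 in the outer part.

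When the period was left free between 1 and 10 kb, the first block aligned best at 4730 bp with reads as weights (vector length 0.286). With each summit counted once, its best period was 2580 bp, at a vector length of only 0.187. In the second block the best period was 1590 bp with weights (0.447) and 1580 bp without (0.377). With each summit counted once, 4.7 kb was thus not the best period of either block. The best period cannot decide about the unit, since a repeat with several summits per unit can also align at a whole fraction of it. Between 4.4 and 5.0 kb alone, the weighted optimum of the second block was 4650 bp (0.334). The strongest peak, at the end of this block, carried part of the value: without it the weighted vector length at 4.7 kb was 0.257 in place of 0.331.

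**Figure D4:**
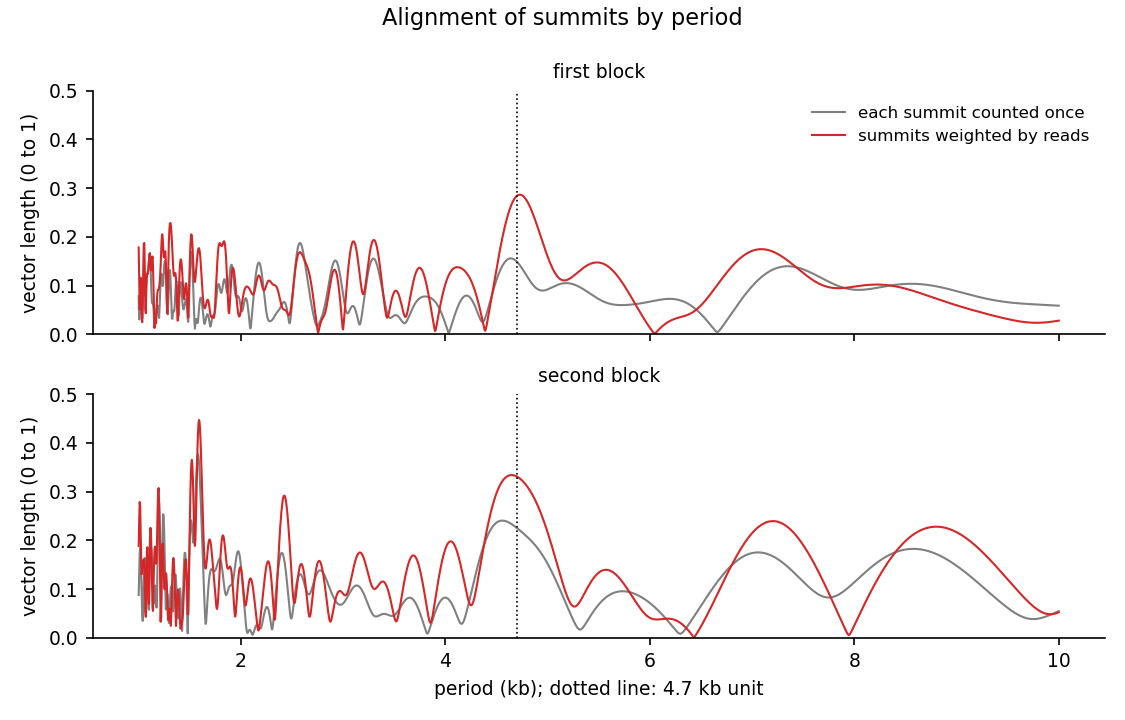
Vector length of the folded summits (0 is no alignment, 1 is full alignment) against the period in kb, for each block, with summits counted once (grey) or weighted by reads (red). The red line of the first block is highest at 4730 bp, and that of the second at 1590 bp with a broad rise around 4.65 kb.

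The order of the summits was also described by chains. A chain was built of summits that each follow the one before by 4.7 kb, within 10% of the unit. The longest chain had 10 summits and ran from 9327594 to 9370567, nearly the whole block, with a mean spacing of 4775 ± 244 bp (SD over 9 spacings). Reads along it ranged from 6 to 33. A second chain from the remaining summits had 9 members, from 9329115 to 9367196, with a mean spacing of 4760 ± 166 bp (SD over 8 spacings). Its reads were more even, from 6 to 14 with a median of 11. Successive spacings in this chain were 4793, 4642, 4774, 4715, 4482, 4872, 5053 and 4750 bp. In the first block the longest chains had 8 and 7 summits, with mean spacings of 4583 ± 292 bp and 4712 ± 223 bp. Summits were dense enough here that some chains arise without a repeat, and the tolerance fixes each spacing to within 470 bp of 4.7 kb, so the mean spacings follow from the construction and the chains are no test of a repeat. In each flank the longest chain had 2 summits, but with 0.263 and 0.244 peaks per unit long chains could hardly form there.

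The 5 summits with at least 20 reads in the first block form 10 pairs, of which 2 were within 10% of the unit of a whole multiple of it, the 20% that the tolerance spans. The summits of 23 reads at 9251824 and 9261323 lay 9499 bp apart, or 2.02 units. The summits of 25 and 20 reads at 9245449 and 9274043 lay 28594 bp apart, or 6.08 units. The other 8 pairs lay between 1.36 and 11.9 units apart and missed a whole multiple by more than the tolerance. Of all pairs of summits with a q under 1 at least 4.23 kb apart, 43 of 137 (31.4%) in the first block and 17 of 45 (37.8%) in the second were within 10% of the unit of a whole multiple of it. For summits with a q of 1 the shares were 21.8% and 22.6%. The pairs with a q under 1 are formed by only 18 and 11 summits. Each summit enters many pairs, so the pairs are not independent, and whether the shares differ was not tested.

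Summit reads varied along both blocks. Each block was cut into stretches of 4.7 kb from its start, and the complete ones were compared. The 12 complete stretches of the first block held 2 to 7 peaks, with a sum of 17 to 61 summit reads (mean 40 ± 16.9, SD over stretches). The 9 of the second block held 2 to 5 peaks, with a sum of 21 to 41 reads (mean 28.9 ± 7.91). A summit with at least 10 reads was present in 10 of the 12 and in 8 of the 9, and a q under 1 in 8 and 6. The highest summit of a stretch ranged from 8 to 25 reads in the first block and from 6 to 15 in the second. The peak of 33 reads fell in the incomplete stretch at the end of the second block, which had 59 summit reads. High reads were hence spread over most stretches of both blocks. Copies of 1 repeat share sequence, so stretches are not independent of each other, and read placement among them cannot be told apart from binding.

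**Figure D5:**
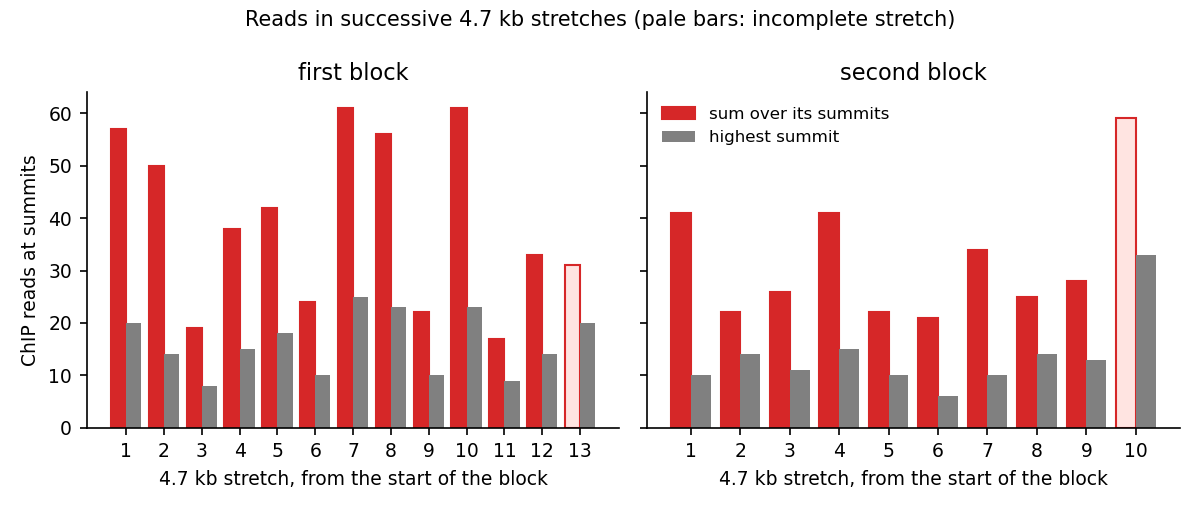
Sum of ChIP reads over the summits (red) and reads at the highest summit (grey) in successive stretches of 4.7 kb from the start of each block, with the incomplete last stretch in pale red. Complete stretches have sums of 17 to 61 reads in the first block and 21 to 41 in the second.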

How the data were processed

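Libraries of TCF12 ChIP and input DNA from Hep3B cells were compared, 1 of each, grouped by their titles. Per the labels, the submitters' processing notes name CASAVA 1.4, Bowtie2 2.0, Picard 2.19.0, MACS2 2.1.2 and hg19. According to the header of the deposited table, MACS used 10254561 ChIP and 8862145 input tags after keeping 1 tag per position, with a p cutoff of 0.05 and an effective genome size of 1870000000 bp. That size is below the human size of 2700000000 bp, at which the genome-wide background would be 0.528 reads in place of 0.763. The genome-wide level set the background, and so the listed fold enrichment and p, at 21 peaks of the cluster and at 6 in each flank. The names of the peaks spell the antibody as FCF12, while the title has TCF12. Depth limits precision, as the weakest listed peaks rest on 3 reads. The Poisson intervals of reads cover counting error only. Those of medians and of the share of spacings treat peaks or spacings of 1 library as independent, so they describe spread and serve no test.

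The deposited pileup is a signal: ChIP reads extended to 161 bp and covering the summit, scaled down to the input library. Fold enrichment, as deposited, is the ratio of pileup to background, each with a pseudocount of 1. The −log10 p-value and −log10 q-value were used as the authors deposited them, although, per the header, q would be given as -1. Reads were obtained as the pileup divided by 0.864 and were whole to within 0.01 for 100% of the peaks. Background was obtained from reads and fold enrichment, and recomputing −log10 p as a Poisson tail came within 5.26e-05 of every deposited value. A match of the background to a window of the input was made within 5e-05 reads, trying 1 kb before 10 kb. Of the table, 10 peaks, none of them in the cluster, matched no window.

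The window, the members and the gene list were chosen with earlier results of these data known. The analyses of blocks, chains, central and outer parts, pairs and stretches were added after the peaks had been seen. Named peaks were the 10 with most reads, with ties, and those at the edges. No comparison was tested, since there was 1 library of each kind. The period and chain steps were tested on simulated summits placed 1 per unit, a sparser setting than that of the blocks. The matching of backgrounds was tested on 1 value per level. Scripts ran under Python 3.11.15 with pandas 2.3.3, scipy 1.17.1, matplotlib 3.10.9 and numpy 2.4.6.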

Additional observations from a re-analysis of the deposited data

How the results depend on the processing

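Counting a peak by 50% overlap or by its summit changed none of the values of the cluster window. A −log10 p minimum of 3 changed more: the ratio to the flanks rose from 6.59 to 21.7, the median reads to 10, the median spacing to 1357 bp and the share of spacings on a multiple of the unit from 0 to 4.69%. With a −log10 q above 0, 29 peaks were left (116 per Mb), with medians of 14 reads, a background of 1.29, a length of 580 bp and a spacing of 2896 bp. The ratio to the flanks could not be computed there, since both held 0 such peaks. A fold enrichment of at least 3 gave a ratio of 17.2, and the rest of chromosome 4 in place of the flanks gave 23.4. Joining summits closer than 1 kb moved the median spacing to 1838 bp and the vector length from 0.115 to 0.0721, and the best unit between 4.4 and 5.0 kb moved the vector length to 0.181. Alternatives chosen after seeing the data gave vector lengths of 0.225 for the second block, 0.284 and 0.331 for the blocks weighted by reads, 0.257 for the second block without its strongest peak, and 0.478 and 0.488 for summits with a −log10 q above 0. The other 30 values moved less, by the interval of the median or share, or by under 1.5 times. The human genome size left the median background at 1.00. No paired analysis was possible because there was 1 ChIP and 1 input library.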
